A study of Mus musculus with 16 samples.

Results

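A set of 10 genes of JAK-STAT signalling and its feedback was followed through all 16 libraries of a mouse study of chronic myeloid leukemia (CML). They were the suppressors of cytokine signalling Socs1, Socs2, Socs3 and Cish, the kinase genes Pim1, Pim2 and Pim3, the transcription factor genes Stat5a and Stat5b, and the kinase gene Jak2. The genes were listed by name, and each of the 10 was present once among the 26595 features of the experiment on CD93 and once among the 36930 features of the drug experiment. RNA of sorted bone marrow cells of C57BL/6 background was sequenced after amplification for very small inputs. KO LSC libraries (n = 3) came from leukemia stem cells of mice that had received Cd93-deficient LSK cells transduced with BCR-ABL1 and green fluorescent protein, and WT LSC libraries (n = 3) from mice given transduced wild-type cells. In both cases the recipients were BL/6 mice that had not been irradiated, so that host marrow remained. KO LSK (n = 2) and WT LSK (n = 2) libraries came from untransduced cells of CD93-/- and wild-type mice without leukemia, LSK being the marrow fraction that lacks lineage markers and carries Sca-1 and c-Kit. MCP LSC libraries (n = 3) came from wild-type CML mice given metoclopramide, a dopamine receptor antagonist, at 10 mg/kg, and Veh LSC libraries (n = 3) from CML mice given vehicle; the labels do not state when or how often it was given. Strain is labelled for wild-type samples. All 16 samples are labelled as postnatal week 8, and the drug samples read LSK in one label and LSC in the title, which was followed. The labels are silent on whether each library is its own animal, and p-values here measure only the spread between these libraries, which may be technical.

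Cytokine receptors without kinase activity of their own carry JAK kinases, which phosphorylate STAT proteins when a ligand binds. STAT5A and STAT5B then pair, enter the nucleus and switch on genes that include Cish, Socs2 and Pim1. SOCS and CISH proteins close the loop by blocking receptors, JAKs or both, while PIM kinases need no further activation and promote growth and survival. The BCR-ABL1 fusion kinase of CML keeps STAT5 phosphorylated without cytokine.

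STAT5 binds the palindrome TTCNNNGAA, in which N is any base and which reads the same on both strands, so the RefSeq promoters of the 10 genes (GRCm38.p6, 250 bases before to 50 after each transcript start) were searched for it. For 9 members 12 promoters were listed, and 2 of these held the palindrome, those of Cish and Socs3. Of all 32851 listed mouse promoters 8.30% held it at least once and 0.457% held it more than once, as Cish did. The stretches around the matches are shown because these are the letters a STAT dimer would read, with the palindromes in capitals and both strands written in the direction of transcription. The Cish stretch lies on the plus strand at chr9:107296579-107296678 and ends 20 bases into the transcript, and the Socs3 stretch lies on the minus strand at chr11:117969467-117969566.
Cish: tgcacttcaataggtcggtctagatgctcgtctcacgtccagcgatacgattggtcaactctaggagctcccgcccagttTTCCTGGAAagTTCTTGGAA
Socs3: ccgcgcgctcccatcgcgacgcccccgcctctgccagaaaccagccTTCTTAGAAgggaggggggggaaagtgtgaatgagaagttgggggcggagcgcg
The first Cish palindrome began at the first base of the RefSeq transcript and the second 11 bases further on, and that of Socs3 began 154 bases before its start. No match says only that these letters were not in the 300-base window. Socs2 is named only.

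The deposited values are read here as RPKM (read counts scaled by gene length and by mapped reads), which can be compared between genes within a library. The lowest value of a file, 0.003 where CD93 was studied and 0.001 for the drug, stands for no signal. Features above it numbered 1230 to 2967 in KO LSC, 5525 to 7956 in WT LSC, 14279 to 14906 in KO LSK, 14839 to 14865 in WT LSK, 15587 to 16447 in MCP LSC and 19554 to 20014 in Veh LSC libraries. Summed sort and stem cell markers (10 genes, Kit and Ly6a among them) were 1.34 to 304 RPKM in KO LSC and 10.5 to 78.7 in WT LSC, against 1336 to 1614 in KO LSK and 1681 to 2509 in WT LSK. Of the sort markers, Ly6a, which encodes Sca-1, was at 0.003 to 1.825 RPKM in KO LSC and 0.003 to 5.41 in WT LSC, against 529 and 626 in KO LSK and 696 and 790 in WT LSK, and at 8.43 to 23.3 in MCP LSC and 14.6 to 23.9 in Veh LSC. Kit was at 0.003 throughout KO LSC and at 0.221, 16.8 and 2.63 RPKM in WT LSC, against 23.6 and 14.2 in KO LSK and 21.4 and 99.3 in WT LSK, and at 62.4 to 74.3 in MCP LSC and 68.4 to 77.5 in Veh LSC. Within the CD93 experiment, Ly6a was thus far below its LSK values in all 6 LSC libraries, and Kit was low or at the lowest value in 5 of the 6. The drug experiment holds no naive LSK libraries against which its Ly6a and Kit values could be called low or high. Summed neutrophil markers (10 genes) were 31520 to 55000 RPKM in KO LSC and 63610 to 109500 in WT LSC, against 2683 to 4390 in KO LSK and 1970 to 5624 in WT LSK. They summed to 255 to 365 in MCP LSC and 186 to 205 in Veh LSC, with 6 or 7 of 10 above the lowest value in MCP libraries and 8 or 9 in Veh libraries. Of the 6 tested between MCP and Veh with limma, 1 passed as higher, and 3 differences were positive and 3 negative (median log2 difference −0.06). Cd93 itself was at 0.003, 44.3 and 0.003 RPKM in KO LSC, 0.003, 0.003 and 5.74 in WT LSC, 1.01 and 2.10 in KO LSK and 5.34 and 22.9 in WT LSK. KO LSC library 2 therefore went against its label, and it is called the library labelled KO LSC 2 below. The 2 experiments were annotated and scaled apart, and no test was made between them.

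In naive LSK cells all 10 genes were above the lowest value in all 4 libraries. In WT LSK, Stat5b averaged 48.4 ± 26.8 RPKM (mean ± SD, n = 2) and Stat5a 47.4 ± 30.8, followed by Pim2 at 38.5 ± 9.67, Socs2 at 35.4 ± 1.12 and Cish at 33.5 ± 7.41. These 5 formed a run in which each gene's range overlapped that of the next. Below them and clear of them came Pim1 at 12.5 ± 1.22 and Pim3 at 9.83 ± 3.23, then Jak2 at 6.45 ± 0.379, Socs3 at 5.18 ± 0.570 and Socs1 at 2.12 ± 1.199. In KO LSK the order was another: Pim2 was first at 48.3 ± 12.9, Pim3 at 39.6 ± 13.5, and Socs1 at 23.0 ± 6.01. There each neighbour's range overlapped the next from Pim2 down to Cish at 20.8 ± 1.04, and Socs3 at 4.66 ± 2.26 and Jak2 at 2.64 ± 0.870 lay apart below.

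Among naive cells, the SOCS gene that stood apart was Socs1, whose protein binds JAKs and shuts their kinase domain. It measured 27.3 and 18.8 RPKM in KO LSK libraries, against 2.96 and 1.27 in WT LSK libraries, so both KO values were well above both WT values. On the scale of log2(RPKM + 1), on which low values are compressed, the difference was 2.98 (SE 0.61, 7.89-fold). It did not pass with the 4 LSK libraries in the model (limma, two-sided, Benjamini-Hochberg over 13208 genes, adjusted p = 0.508), where 0 genes passed and 772 (5.84%) had an unadjusted p under 0.05, Socs1, Pim3 and Pim1 among them. With all 10 libraries of the experiment in 1 model the adjusted p of Socs1 was 0.00455, but that model takes much of its error from LSC libraries in which Socs1 never left the lowest value. Under quantile scaling the difference was 1.69.

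Socs2 and Cish, whose proteins damp growth hormone and cytokine receptor signals and which are textbook STAT5 targets, lay on the other side. Socs2 was at 15.7 and 26.9 RPKM in KO LSK, against 34.6 and 36.2 in WT LSK. Cish was at 21.5 and 20.03 RPKM in KO LSK, against 28.2 and 38.7 in WT LSK. For both genes the groups did not overlap, and the log2 differences of −0.75 (SE 0.43) and −0.65 (SE 0.41) did not pass (limma, adjusted p = 0.83 for each). Socs3, whose protein acts mainly on receptors of the interleukin-6 family, was at 3.07 and 6.26 RPKM in KO LSK and 5.59 and 4.78 in WT LSK, with the WT values inside the KO range. Within a library, Socs1 was 8.89 and 3 times the level of Socs3 in KO LSK, against 0.531 and 0.265 times in WT LSK.

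**Figure D1:**
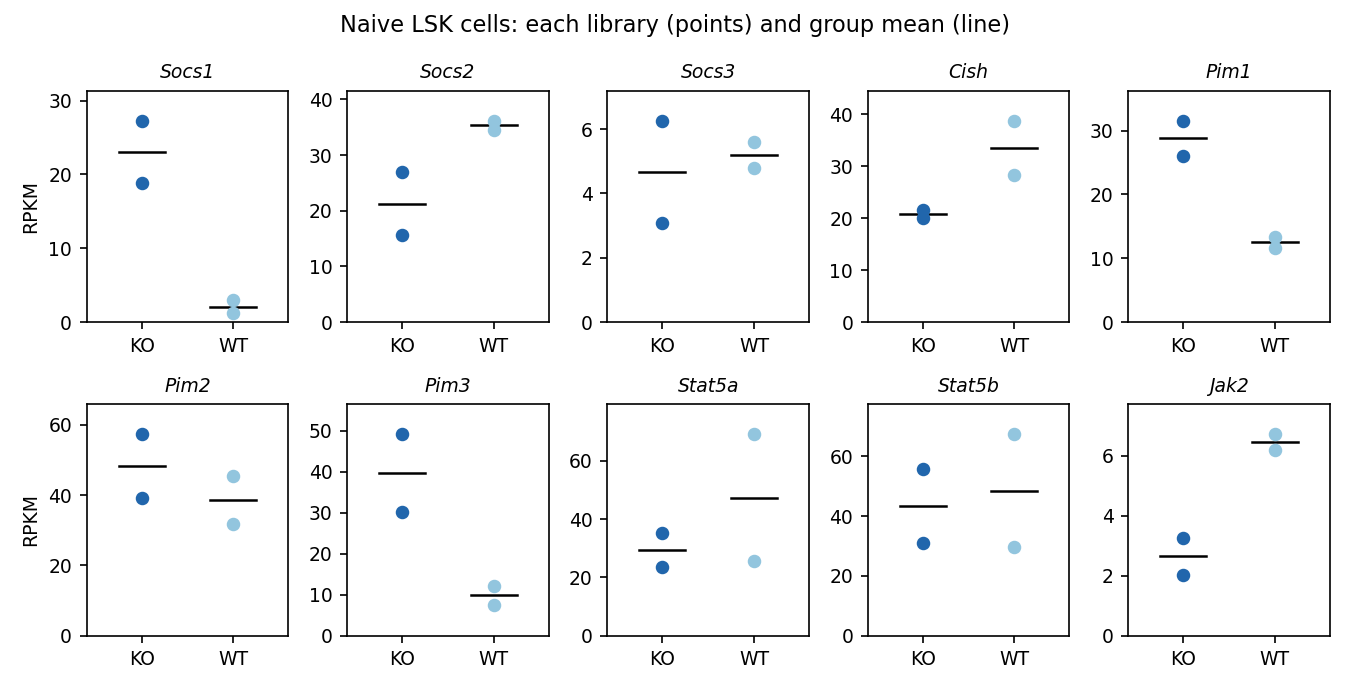
RPKM of the 10 genes in naive LSK cells, with 1 panel a gene, KO left of WT, a point for each of 2 libraries and a line at their mean, and an axis from 0 in every panel. Socs1, Pim1 and Pim3 had both KO points above both WT points, and Socs2, Cish and Jak2 had both below.

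The PIM kinase genes were higher or overlapping in KO LSK. Pim3 measured 49.2 and 30.1 RPKM in KO LSK, against 7.54 and 12.1 in WT LSK, a log2 difference of 1.90 (SE 0.49, adjusted p = 0.717 by limma). Pim1 measured 26.1 and 31.5 RPKM in KO LSK, against 13.3 and 11.6 in WT LSK, a log2 difference of 1.14 (SE 0.45, adjusted p = 0.811). Both separated the groups without passing the test. Pim3 passed with all 10 libraries in 1 limma model (adjusted p = 0.0348). That model takes much of its error from LSC libraries in which Pim3 never left the lowest value. Pim2, at 39.1 and 57.4 RPKM in KO LSK and 31.7 and 45.4 in WT LSK, overlapped. Pim3 was thus 1.88 and 0.954 times the level of Pim1 in KO LSK libraries, and 0.566 and 1.04 times in WT LSK libraries.

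The upstream genes did not separate alike. Jak2, the kinase of the erythropoietin and interleukin-3 receptors, was at 2.03 and 3.26 RPKM in KO LSK, against 6.18 and 6.71 in WT LSK (log2 difference −1.05, SE 0.61, adjusted p = 0.83), with no overlap. Stat5a was at 35.1 and 23.5 RPKM in KO LSK and 25.6 and 69.2 in WT LSK, and Stat5b at 55.7 and 31.0 in KO LSK and 29.5 and 67.4 in WT LSK. WT LSK library 2 was the highest for both STAT5 genes and WT LSK library 1 among the lowest, so their groups overlapped. The 2 STAT5 genes are near-identical neighbours on chromosome 11 (Stat5a from 100859351 to 100885169 on the plus strand, Stat5b from 100780731 to 100850724 on the minus strand, GRCm38, GENCODE M21), and reads that match both could be split between them by the authors' counting. Stat5b was 0.974 to 1.59 times the level of Stat5a in the 4 LSK libraries.

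Of the 10 genes, 3 lay above and 3 below with no overlap between KO and WT LSK, while over all 13208 tested genes 14% lay above and 20.7% below, and 0 members passed where 0% of all genes did. The members' median log2 difference was −0.14, beside −0.11 over all tested genes. That all-gene median was −0.01 under quantile scaling and −0.24 with libraries scaled to equal totals. Relative to it Socs1 was 3.09 higher, Pim3 2.01 higher, Pim1 1.26 higher, Socs2 0.64 lower, Cish 0.53 lower and Jak2 0.94 lower, and each of these 6 kept its direction relative to it under both scalings. Mast cell and basophil markers did not move as one: 6 of 6 were above the lowest value in each KO LSK library and 3 and 5 of 6 in WT LSK libraries 1 and 2, with summed levels of 155 and 197 RPKM in KO LSK and 107 and 173 in WT LSK, which overlap. Fcer1a (4.14 and 7.84 RPKM in KO LSK, 0.003 in both WT LSK libraries), Mcpt8 (56.8 and 58.8 in KO LSK, 6.94 and 20.9 in WT LSK) and Prss34 (60.3 and 36.1 in KO LSK, 0.003 and 12.6 in WT LSK) lay above with no overlap. Gata2 (53.7 and 34.9 in KO LSK, 69.7 and 115 in WT LSK) and Cpa3 (20.3 and 14.3 in KO LSK, 29.9 and 21.0 in WT LSK) lay below, and Ms4a2 overlapped. Macrophage markers (7 genes) summed to 2724 and 2100 RPKM in KO LSK against 1731 and 1019 in WT LSK, and T and NK cell markers (8 genes) to 984 and 907 in KO LSK against 714 and 692 in WT LSK, with 7 of 7 and 6 to 8 of 8 above the lowest value in all 4 libraries. The part of these cells in the Socs1 and PIM values was not tested.

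Further JAK-STAT genes were counted from 3 lists. Of the JAK-STAT core and its regulators 26 of 27 were tested between KO and WT LSK and 0 passed (limma), with 4 differences positive and 22 negative and a median of −0.68. The smallest p was that of Stat2, a factor of interferon signalling, at 5.78 ± 0.597 RPKM in KO LSK and 23.3 ± 12.7 in WT LSK (n = 2 each, adjusted p = 0.789). Of other STAT5 targets 14 of 16 were tested and 0 passed, 8 positive and 6 negative, with a median of 0.24. The cytokine gene Lta came first by p in that list (adjusted p = 0.6), and it was at 3.84 and 7.88 RPKM in KO LSK but at 0.003 in WT LSK libraries 1 and 2. All 14 receptor genes were tested and 0 passed, 7 positive and 7 negative.

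In leukemia stem cells of the CD93 experiment the 10 genes were mostly at the lowest value. KO LSC libraries held 2 of 30 values above it and WT LSC libraries 6 of 30, against 20 of 20 in KO LSK and 20 of 20 in WT LSK. Socs1, Socs3, Cish and Pim3 were at 0.003 in all 6 LSC libraries. In WT LSC libraries 1, 2 and 3, Socs2 was at 0.003, 0.003 and 176 RPKM, Pim1 at 0.003, 0.003 and 21.9, and Pim2 at 0.003, 0.003 and 58.5, so these 3 were seen in library 3 alone. Stat5a at 4.20 RPKM, Stat5b at 2.33 and Jak2 at 2.76 were seen in WT LSC library 1 alone, and WT LSC library 2 held none of the 10. The library labelled KO LSC 2, which also held Cd93, had Stat5a at 169 RPKM and Stat5b at 0.112, while KO LSC libraries 1 and 3 held none.

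**Figure D2:**
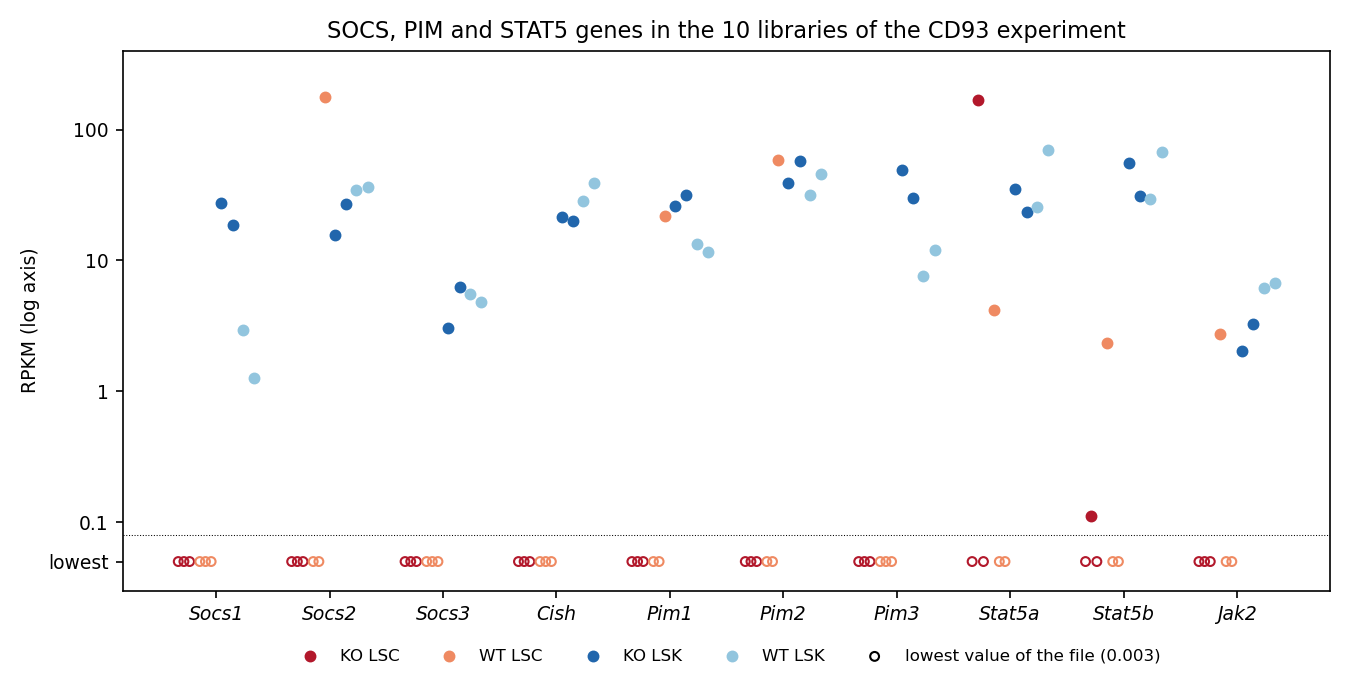
RPKM on a log axis for the 10 genes in the 10 libraries of the CD93 experiment, with filled points for values above 0.003 and open points, below the dotted line and off the scale, for values at it. From left to right within a gene stand KO LSC, WT LSC, KO LSK and WT LSK; all LSK points are filled, and 2 of 30 KO LSC and 6 of 30 WT LSC points are.

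No member passed between KO and WT LSCs. Stat5a was the sole member with 1 RPKM or more in 2 of these 6 libraries and so the sole one tested (56.4 ± 97.6 RPKM in KO LSC and 1.403 ± 2.43 in WT LSC, n = 3 each, log2 difference 1.68, SE 2.13, adjusted p = 0.608), and its mean in KO rests on 1 library. For the other 9 there was no test, and no member had groups that did not overlap. Over all 6074 tested genes 0.0988% passed as higher and 14.2% as lower in KO LSC (14.3% together), 1.23% lay above and 30.2% below with no overlap, with a median log2 difference of −2.43. In the same comparison 3 of 13 tested core genes were called lower, Inpp5d, Ptpn2 and Stat3, which stood at 0.003 throughout KO LSC and at 43.2 ± 3.71, 18.6 ± 14.9 and 16.7 ± 11.4 RPKM in WT LSC (n = 3). They entered the test only through WT LSC, so the direction of these calls was fixed by the filter and no p is given. Inpp5d encodes the lipid phosphatase SHIP1, and Ptpn2 a phosphatase of JAKs and STATs. Of other STAT5 targets 1 of 6 tested was called lower, the cyclin gene Ccnd2, and of receptors 2 of 6, Epor and Ifnar2, again at 0.003 throughout KO LSC, to which the same applies. Fewer cells of a type and less RNA per cell cannot be told apart in such bulk samples. These counts fell to 0 genes called overall without KO LSC library 3, and to 0 without the library labelled KO LSC 2.

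Between leukemic and naive cells every member's estimate was lower in LSCs, in both genotypes. Of the 10 members tested between WT LSC and WT LSK 6 were called lower (Socs1, Socs3, Cish, Pim3, Stat5a and Stat5b) and 0 higher, and 7 lay below with no overlap, Jak2 being the added one. Over all 12449 tested genes 40.9% were called, 38.8% lower and 2.12% higher, and 56.6% lay below and 6.78% above with no overlap. All 10 reached the filter through WT LSK, so the count is a description and nothing is read from it. Stat5a was at 1.403 ± 2.43 RPKM in WT LSC and 47.4 ± 30.8 in WT LSK, and Stat5b at 0.779 ± 1.34 in WT LSC and 48.4 ± 26.8 in WT LSK. Both were above 0.003 in WT LSC library 1 alone and reached the filter only through WT LSK, so no p is given. Cish, Socs3, Pim3 and Socs1 stood at 0.003 throughout WT LSC, so they could only be called lower, and neither fold nor p is given. Socs2, Pim1 and Pim2 were not called (limma, adjusted p = 0.483, 0.35 and 0.296), their WT LSC signal being that of library 3. The Stat5a call ended under quantile scaling, pseudocount 0.1, the replicate block, library weights and all 10 libraries in 1 fit. It also ended without any 1 library other than WT LSC library 1. The Stat5b call ended under quantile scaling. Without either WT LSK library Socs1, Socs3, Cish and Pim3 no longer reached the filter and were not tested, while Stat5a and Stat5b were tested and not called.

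Between KO LSC and KO LSK 9 of 10 members were called lower and 9 lay below with no overlap, Stat5a being the exception through the library labelled KO LSC 2. All 10 reached the filter through KO LSK, and 8 of the 9 stood at 0.003 throughout KO LSC, with Stat5b at most at 0.112, so those 9 could only be called lower and nothing is read from the count. Over all 11785 tested genes 72.9% were called (72.5% lower and 0.433% higher), 73.7% had an unadjusted p under 0.05, and 77.9% lay below and 1.38% above with no overlap. With only 1 of the KO LSK libraries Stat5a was the sole member that reached the filter, and it was not called. Loss of signal in LSC libraries was general: of 9712 features averaging at least 5 RPKM in KO LSK, 73.3%, 78.7% and 89.1% were at the lowest value in KO LSC libraries 1, 2 and 3, and of 10030 such features in WT LSK 34.4%, 43.9% and 52.6% were in WT LSC libraries 1, 2 and 3. Of the 8 members at that level in KO LSK 8, 6 and 8 were at the lowest value in the same KO LSC libraries, and of the 9 at that level in WT LSK 6, 9 and 6 were in the WT LSC libraries. The part of this general loss in the members' calls was not tested.

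Whether the leukemic and naive difference itself differed between genotypes was tested with all 10 libraries. Of the 10 members 2 passed, Socs1 (−2.98, SE 0.40, adjusted p = 0.00854 by limma) and Pim3 (−1.90, SE 0.43, adjusted p = 0.044), both with the more negative LSC minus LSK difference in KO cells. Over all 13485 tested genes 6.08% passed, 5.15% in that direction and 0.934% in the other. Both genes stood at 0.003 in each LSC library, so the values are those of the LSK comparison with the sign turned, and the error is pooled with LSC values that have no spread; on the 4 LSK libraries alone neither passed (adjusted p = 0.508 for Socs1 and 0.717 for Pim3). Among the listed JAK-STAT genes Inpp5d, Lta, Epor and Ifnar2 also passed, all at 0.003 throughout KO LSC. Lta was at 0.003 throughout WT LSC and WT LSK as well, so its value too is that of the LSK comparison with the sign turned.

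With those lists, WT LSCs had 8 of 25 tested core genes called lower than WT LSK and 0 higher, 4 of 13 other STAT5 targets lower and 6 of 13 receptors lower, beside 38.8% of all tested genes. The kinase gene Tyk2 and the survival gene Bcl2l1, both at 0.003 throughout WT LSC, and the shared receptor chain gene Csf2rb were among them. KO LSCs had 17 of 26 core genes, 12 of 13 targets and 11 of 14 receptors called lower than KO LSK, and 0 higher, beside 72.5% of all tested genes called lower. Nothing particular to these lists is read from the counts.

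In LSCs of the drug experiment all 10 genes were above the lowest value in all 6 libraries. Pim1 was the highest member in every library. In Veh LSCs it averaged 128 ± 6.70 RPKM (n = 3), followed by Jak2 at 50.3 ± 9.81, Stat5b at 44.0 ± 1.07, Cish at 42.0 ± 0.471 and Stat5a at 41.0 ± 1.94. The ranges of Jak2 and Stat5b overlapped, as did those of Cish and Stat5a. Socs2 at 22.2 ± 1.68 lay clear of its neighbours, and Pim3 at 14.4 ± 3.02, Socs3 at 13.26 ± 0.8, Pim2 at 9.69 ± 2.94 and Socs1 at 7.68 ± 2.75 each overlapped the next. Pim1 was 13.5 to 34.0 times the level of Pim2 in MCP LSC and 9.17 to 17.0 times in Veh LSC libraries. KO and WT LSK libraries of the CD93 experiment had Pim1 at 0.256 to 0.667 times that level. WT LSC library 3, the sole LSC library there with both genes above the lowest value, had it at 0.375 times. The experiments were annotated and scaled apart, so cell state and experiment cannot be told apart in this contrast.

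Under metoclopramide the 4 SOCS family genes were lower or overlapping. Cish measured 30.7, 32.7 and 28.3 RPKM in MCP LSC libraries, against 41.7, 42.6 and 41.8 in Veh LSC libraries. All 3 MCP values lay below the 3 tightly grouped Veh values, and the log2 difference of −0.45 (SE 0.10, unadjusted p = 0.00196) had an adjusted p of 0.0602 (limma over 14005 genes). Socs2 measured 19.5, 6.41 and 8.92 RPKM in MCP LSC, against 22.04, 23.9 and 20.6 in Veh LSC. The groups did not overlap, but MCP library 1 lay just below the vehicle range and the other 2 far below it (log2 difference −1.01, SE 0.35, adjusted p = 0.148). Without MCP library 1, the one nearest the vehicle values, the difference was −1.43 and passed (limma, adjusted p = 0.0272). Socs2 passed in no other fit that left out 1 library.

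Socs1 measured 4.25, 4.20 and 3.01 RPKM in MCP LSC, against 5.14, 10.6 and 7.30 in Veh LSC, with no overlap (log2 difference −0.81, SE 0.28, adjusted p = 0.154). Socs3 measured 8.01, 12.6 and 4.39 RPKM in MCP LSC, against 13.2, 12.5 and 14.1 in Veh LSC, and MCP library 2 reached just into the vehicle range (log2 difference −0.71, SE 0.32, adjusted p = 0.236). Socs2 was 0.635, 0.196 and 0.315 times the level of Cish in MCP libraries 1, 2 and 3, against 0.529, 0.562 and 0.491 times in Veh libraries, so the ratio was lower in MCP libraries 2 and 3 and higher in MCP library 1.

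**Figure D3:**
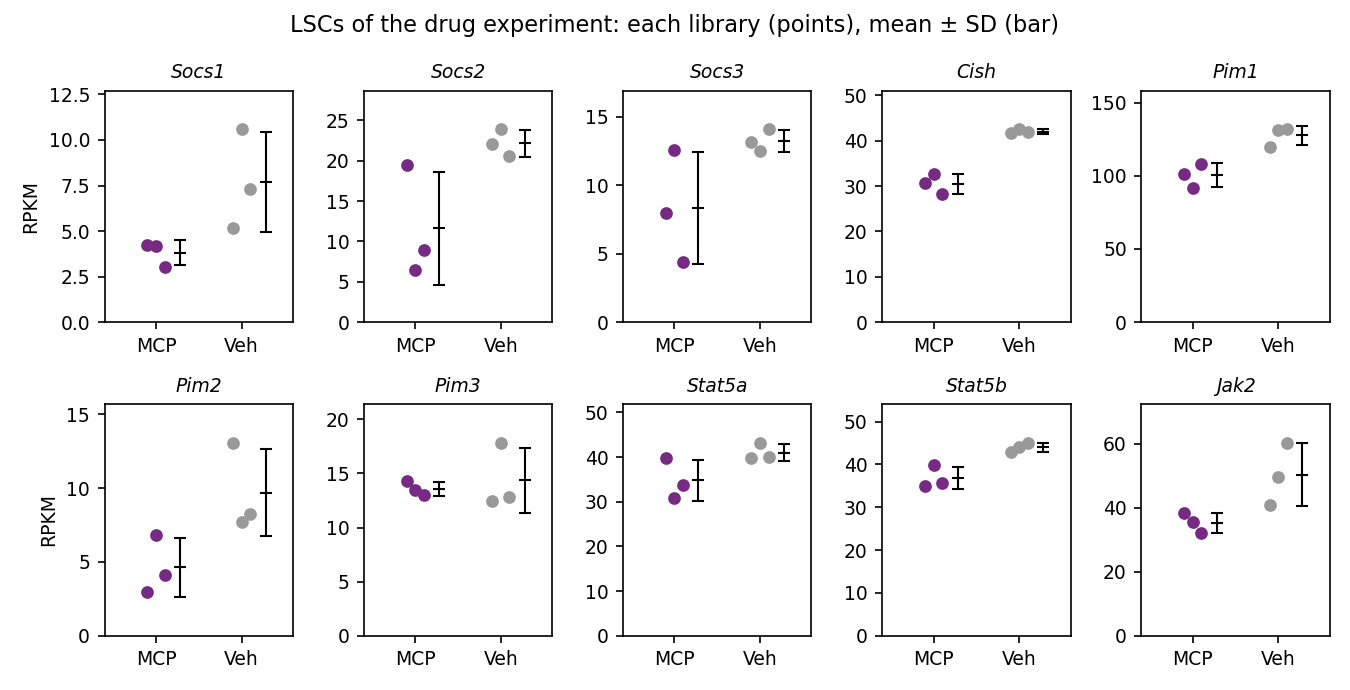
RPKM of the 10 genes in LSCs of the drug experiment, with MCP left of Veh, a point for each of 3 libraries, a bar for mean ± SD, and an axis from 0 in every panel. In 8 of 10 panels all MCP points lie below all Veh points; Socs3 and Pim3 overlap.

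Of the PIM genes, Pim1 measured 101, 91.9 and 108 RPKM in MCP LSC, against 120, 131 and 132 in Veh LSC. The groups did not overlap, with a log2 difference of −0.34 (SE 0.09, unadjusted p = 0.00469, adjusted p = 0.0796). Pim2 measured 2.97, 6.80 and 4.09 RPKM in MCP LSC, against 13.1, 7.72 and 8.27 in Veh LSC, also without overlap (log2 difference −0.95, SE 0.31, adjusted p = 0.137). Pim3 measured 14.3, 13.4 and 13.0 RPKM in MCP LSC, against 12.4, 17.9 and 12.8 in Veh LSC. The MCP values of Pim3 lay within the vehicle range, and its log2 difference was −0.06 (SE 0.17, adjusted p = 0.864), turning to 0.12 under quantile scaling and to 0.10 without Veh library 2.

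Upstream of these, Jak2 measured 38.2, 35.4 and 32.1 RPKM in MCP LSC, against 40.8, 49.7 and 60.4 in Veh LSC (log2 difference −0.49, SE 0.15, adjusted p = 0.124). Stat5b measured 35.1, 39.9 and 35.6 RPKM in MCP LSC, against 42.9, 44.0 and 45.1 in Veh LSC (log2 difference −0.25, SE 0.09, adjusted p = 0.174). Both genes had all MCP values below all Veh values. Stat5a measured 39.7, 30.7 and 33.8 RPKM in MCP LSC, against 39.8, 43.2 and 39.95 in Veh LSC, and MCP library 1 came within 1 RPKM of the lowest Veh value (log2 difference −0.24, SE 0.12, adjusted p = 0.271).

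Thus 0 of 10 members passed in the drug comparison (limma), 7 had an unadjusted p under 0.05, and 8 lay below with no overlap. Over all 14005 tested genes 2.32% passed (73 or 0.521% higher and 252 or 1.8% lower; 97 and 150 under quantile scaling, 98 and 1639 at equal totals), 23% had an unadjusted p under 0.05, and 25.6% lay below with no overlap, against 4.91% above. All 10 estimates were negative, with a median of −0.47 beside −0.18 over all genes. Scaling moved the all-gene median, to −0.03 under quantile scaling and to −0.30 with libraries scaled to equal totals. Relative to it the members' median was −0.29 as deposited, −0.33 under quantile scaling and −0.30 at equal totals, and 9 of 10 members lay below it in each case, Pim3 above. At equal totals Cish, Pim1, Stat5b and Jak2 passed (adjusted p = 0.0212, 0.0196, 0.0472 and 0.0479).

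**Figure D4:**
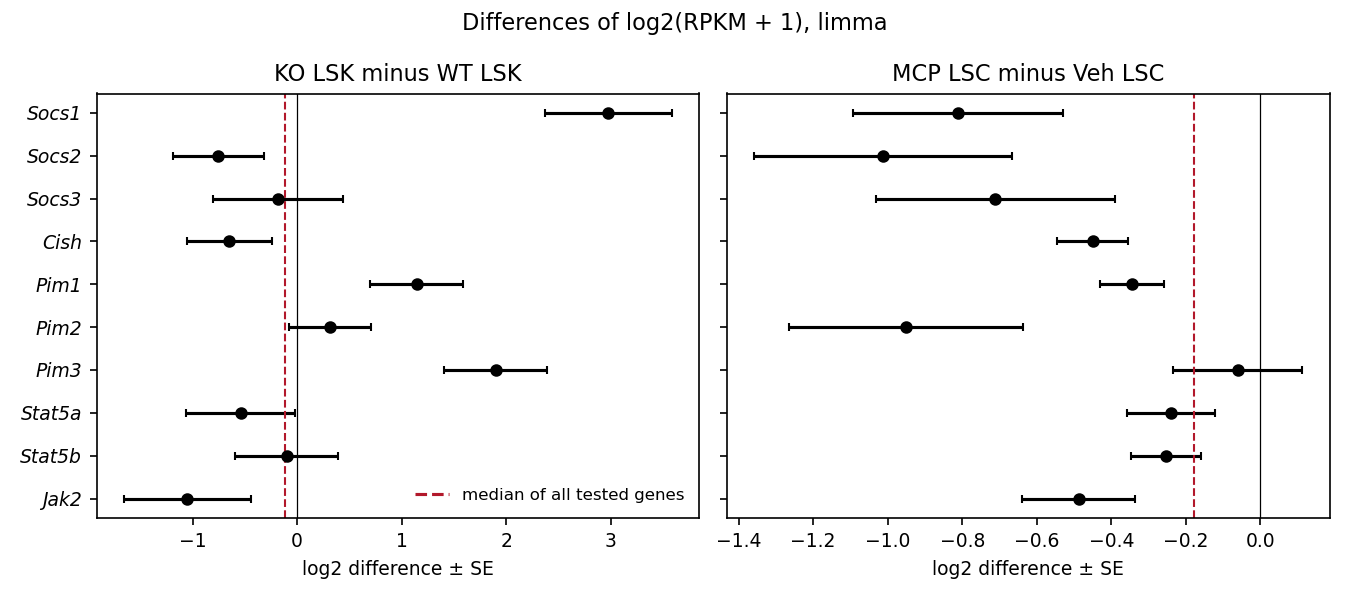
Log2 differences with their standard errors from limma for the 10 genes, KO LSK minus WT LSK on the left and MCP LSC minus Veh LSC on the right, each on its own horizontal scale. The dashed line is the median of all tested genes (−0.11 and −0.18). In the left panel Socs1, Pim3, Pim1, Pim2 and, barely, Stat5b stand to the right of it, and the others to the left. In the right panel all members but Pim3 stand to the left.

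Other marker genes moved with the drug comparison. Mast cell and basophil markers summed to 74.9 to 82.0 RPKM in MCP LSC and 228 to 242 in Veh LSC, and 4 of 6 passed as lower; 5 or 6 of 6 were above the lowest value in each MCP library, Ms4a2 being the one at it in MCP library 3. All 5 granule genes of neutrophil progenitors passed as higher, with sums of 4784 to 4921 RPKM in MCP LSC and 3106 to 3368 in Veh LSC. Sort and stem cell markers summed to 196 to 208 RPKM in MCP LSC and 293 to 308 in Veh LSC, with 10 of 10 above the lowest value in every library. Macrophage markers summed to 13.8 to 16.5 in MCP LSC and 21.6 to 26.3 in Veh LSC. Of these 7 genes, 4 or 5 were above the lowest value in MCP libraries and all 7 in Veh libraries. Cd68, the largest of them, overlapped at 11.6 to 12.2 in MCP LSC and 10.6 to 13.1 in Veh LSC, as did Vcam1 and Mrc1. Csf1r lay below at 0.602 to 1.655 in MCP LSC and 5.08 to 5.78 in Veh LSC, as did C1qa, C1qb and C1qc, low throughout. T and NK cell markers summed to 81.2 to 131 RPKM in MCP LSC and 74.2 to 86.3 in Veh LSC. Nearly all of this was Nkg7, at 80.8 to 129 RPKM in MCP LSC and 72.6 to 83.6 in Veh LSC. Of the 8 genes, 2 or 3 were above the lowest value in MCP libraries and 4 to 6 in Veh libraries. The part of these differences in cell makeup in the members' values was not tested.

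Further JAK-STAT genes in this comparison included 4 that passed, all lower with MCP, where 1.8% of all tested genes passed as lower and 2.32% in either direction. Of 27 tested core genes 1 passed, Ptpn11, which encodes the phosphatase SHP2, at 39.2 ± 0.909 RPKM in MCP LSC and 54.7 ± 0.918 in Veh LSC (log2 difference −0.47, SE 0.08, adjusted p = 0.0361); all 27 differences were negative, with a median of −0.28. Of 15 other STAT5 targets 2 passed. Dusp1, which encodes a phosphatase of MAP kinases, was at 82.3 ± 4.20 RPKM in MCP LSC and 126 ± 9.45 in Veh LSC (log2 difference −0.60, SE 0.08, adjusted p = 0.0238). The growth regulator gene Myc was at 142 ± 18.4 RPKM in MCP LSC and 203 ± 7.37 in Veh LSC (log2 difference −0.52, SE 0.10, adjusted p = 0.0466). Of 14 receptors 1 passed, Csf2rb, the chain shared by the interleukin-3, interleukin-5 and GM-CSF receptors, at 17.9 ± 0.590 RPKM in MCP LSC and 29.2 ± 2.20 in Veh LSC (log2 difference −0.67, SE 0.11, adjusted p = 0.0339), with 5 differences of its list positive and 9 negative.

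The genes whose log2 values followed those of Socs2 and Pim1 most closely were listed as a description. Over the 10 libraries of the CD93 experiment, among 7080 genes averaging at least 5 RPKM, they were Capn10, Nt5dc1 and Wwox for Socs2 (Pearson r = 1, 0.996 and 0.996) and Slc2a8, Mad2l2 and Bmyc for Pim1 (r = 0.999, 0.994 and 0.991). Socs2 and Pim1 each have 5 of their 10 values at the lowest level here. Over the 6 libraries of the drug experiment, among 8173 genes, they were Bach1, Atxn3 and Dhx15 for Socs2 (r = 0.996, 0.995 and 0.995) and Zfp106, Lars and Slain2 for Pim1 (r = 0.994, 0.994 and 0.992). The libraries of each group share their treatment. Estimated depth differed within KO LSK and within WT LSK, and the depth of 11 libraries, the drug libraries among them, is unknown.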

How the data were processed

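The deposited values, 1 file a library, are taken as RPKM; the labels do not name the unit, and it was inferred from values that are not whole and column totals of 828690 to 1360625. The submitters' processing notes name the builds GRCm38 and mm10; for the aligner and the counter the labels name nothing (not given in the sources used here). Reads were not counted here and depth is not given; in single-exon genes, low values spaced by the value of 1 read (40% or more within 0.1 of a whole multiple, where an even spread gives 20%) put it at 5.74 to 8.07 M reads (M, mega) in LSK libraries and 2.72 M in WT LSC library 2, with no error attached, and the other 11 libraries gave no estimate. Values were analysed as log2(RPKM + 1) with limma 3.58.1 (R 4.3.3), with an intensity trend, on genes reaching 1 RPKM in 2 or more libraries of the fit, two-sided, with Benjamini-Hochberg adjustment over all tested genes and a threshold of 0.05. Only the compared groups entered a fit, because groups differ widely in spread; the difference between leukemia effects used all 10 libraries. Lists held 27 core genes, 16 other STAT5 targets, 14 receptors and 8 sets of cell markers. B cell markers summed to 0.018 to 1594 RPKM in KO LSC, 0.018 to 8.25 in WT LSC, 129 to 145 in KO LSK, 110 to 158 in WT LSK, 0.715 to 2.25 in MCP LSC and 2.43 to 5.13 in Veh LSC. Erythroid markers summed to 1719 to 2569 in KO LSC, 1726 to 3182 in WT LSC, 300 to 402 in KO LSK, 351 to 665 in WT LSK, 351 to 381 in MCP LSC and 382 to 424 in Veh LSC. From each gene list up to 4 genes with the smallest p were to be named, those that passed first. Members and lists were chosen with earlier results of these data known. The model was tested on simulated data for KO against WT LSK and MCP against Veh LSC only, on genes averaging at least 5 RPKM. Comparisons with LSCs of the CD93 experiment, where many values are at the lowest level, and the difference between leukemia effects were not simulated. Gene positions are from GENCODE M21 and promoters from RefSeq (GRCm38.p6); protein sequences were not used here. Alternatives in scaling, filter, pseudocount, library weights, replicate block, samples in the fit and libraries left out were tried. Some genes of the lists count in them but are not reported here by name.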

Additional observations from a re-analysis of the deposited data

Results flagged for a closer look

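For 2 members the change between leukemic and naive cells differed between genotypes in a test of the difference itself, with all 10 libraries of the CD93 experiment in the model. For Socs1 the LSC minus LSK difference was −4.56 in KO and −1.58 in WT cells on the log2(RPKM + 1) scale, a difference of −2.98 (SE 0.40, limma adjusted p = 0.00854). For Pim3 it was −5.30 in KO and −3.40 in WT cells, a difference of −1.90 (SE 0.43, adjusted p = 0.044). Of all 13485 tested genes 6.08% passed this test. Neither gene left the lowest value in any LSC library, so the differences are those between KO and WT LSK cells with the sign turned, with error pooled from LSC values that have no spread, and they carry no measurement from leukemic cells. On the 4 LSK libraries alone neither gene passed (adjusted p = 0.508 for Socs1 and 0.717 for Pim3). Pim3 lost its call in 8 of the 17 alternatives run for it and Socs1 in 1, the replicate block.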

How the results depend on the processing

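Of 666 values of single members under alternatives 610 kept direction and side of the threshold. With no filter on low values 0 genes passed between KO and WT LSC by limma (868 as reported; 1440 had an unadjusted p under 0.05), with library weights 2369, and leaving out 1 library gave 0 to 1967. The members' count was 0 throughout, with 0 or 1 member tested in each fit that left out a library. Between KO and WT LSK, 247 genes and 2 members passed with all 10 libraries in 1 fit, and 18 to 76 genes with 1 library left out. Same-numbered LSK libraries deviated in opposite directions (r = −0.287), and a crossed replicate block, chosen after seeing the data, gave 192 genes and 2 members, Socs1 and Pim3. Between WT LSC and WT LSK the filter on a mean of 5 RPKM gave 2639 genes and 3 members, and leaving out 1 library gave 39 to 5783 genes and 0 to 8 members (6 members tested without either WT LSK library); quantile normalization gave 674 higher and 3629 lower, against 264 and 4829. Between KO LSC and KO LSK the same filter gave 4643 genes, and leaving out 1 library 9 to 9365 genes and 0 to 10 members (1 member tested without either KO LSK library). Between MCP and Veh LSC, scaling to equal totals gave 1737 genes and 4 members, leaving out 1 library 25 to 406 genes and 0 to 1 members (46, 79 and 25 genes without Veh libraries 1, 2 and 3), and quantile normalization 97 higher and 150 lower, against 73 and 252. For the difference of leukemia effects, library weights gave 467 genes, leaving out 1 library 491 to 1558 genes and 1 to 2 members, and equal totals or no filter 1 member. The cause was not tested. Same-numbered libraries did not deviate together (correlations of deviations −0.287 to 0.044). With the replicate block 0 genes passed between KO and WT LSC (1647 at an unadjusted p under 0.05), 39 between MCP and Veh, and 0 genes and 0 members for the difference of effects; between WT LSC and WT LSK it gave 8 members (6 as reported), adding Socs2, Pim1 and Pim2 and losing Stat5a. Between KO and WT LSK it left 0 genes past the threshold and 470 with an unadjusted p under 0.05 (772 without it); it moved no other count of calls by over 1.5 times.

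Signs turned, none past the threshold, for these log2 differences. In LSK cells Stat5b was 0.075 under quantile normalization, and leaving out 1 library gave −0.68 to 0.48 for Stat5b, −1.24 to 0.16 for Stat5a and −0.60 to 0.24 for Socs3. With MCP, Pim3 was 0.12 under quantile normalization and −0.15 to 0.10 with 1 library left out. For the difference of leukemia effects Stat5b was 0.90 and Jak2 −0.23 under quantile normalization, Jak2 was −0.31 with pseudocount 0.1, and leaving out 1 library gave −1.01 to 0.15 for Stat5b, −0.25 to 3.45 for Stat5a, −2.98 to 0.75 for Socs2 and −0.24 to 0.60 for Socs3. The depth of 11 libraries is unknown, which limits what a value at the lowest level can show.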
